A study of Rattus norvegicus with 14 samples.

Results

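NS-398, an inhibitor that prefers cyclooxygenase-2, and SC-560, an inhibitor that prefers cyclooxygenase-1, were compared directly in IEC-6 cells, a non-transformed line of epithelial cells from the crypts of rat small intestine. The comparison used 8 of the 14 arrays of the series, which were the 4 arrays of cells kept with 100 µM NS-398 for 72 h and the 4 arrays of cells kept with 1 µM SC-560 for 72 h. Per the labels DMSO for 72 h was the vehicle control, and its 4 arrays are given beside them as control levels. The remaining 2 arrays, of 100 µM indomethacin, enter 1 alternative fit and nothing else. Each group held arrays 1 and 2, whose labels have no suffix, and arrays 1b and 2b, whose labels carry the suffix b. What the suffix stands for is not given in the sources used here, and arrays without it and with it are called the 2 label sets. The doses of the drugs differed by design, so that drug and dose cannot be told apart in any value below. The study set drugs that slow the migration of these cells, NS-398 among them, against drugs that do not, such as SC-560. Per the submitters' design text cultures were pooled and 4 arrays hybridised per biological sample, so that p-values reflect only how far arrays differ, and that spread may be technical.

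Cyclooxygenases turn arachidonic acid into the prostaglandin precursor that later enzymes make into prostaglandins, prostacyclin and thromboxane. In the gut, cyclooxygenase-1, encoded by Ptgs1, is known as the form made without a stimulus, and cyclooxygenase-2, encoded by Ptgs2, as the form induced by growth factors, injury and inflammation. Prostaglandins act through receptors such as that of Ptger4, are carried out of cells by Abcc4 and are inactivated by reductases such as that of Ptgr1. Some drugs of this class are also known to bind PPAR-gamma, a nuclear receptor that turns on genes of lipid storage, at high concentrations.

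The median signals of the 8 arrays lay between 101 and 118, with the highest values on SC-560 arrays 1b and 2b, and 50.1% to 52.4% of their probe sets stood at 100 or more. Beta-actin control probes, which compare the 3' with the 5' end of the transcript and so report on RNA quality, gave ratios of 1.51 to 1.62 on arrays lacking the suffix and of 1.22 to 1.30 in set b, for both drugs alike. The same ratio from Gapdh control probes showed no such gap, with 0.90 to 0.99 on arrays lacking the suffix and 0.95 to 1.00 in set b. The first principal component of these arrays held 71.0% of the variance and separated the label sets, and the second held 11.1% and separated NS-398 (scores from 13.5 to 16.6) from SC-560 (from -13.3 to -16.9). In the limma fit 8576 of 17117 probe sets differed between the label sets (50.1%), and the label set therefore stood as a term in the main fit over the 8 arrays. Depth does not apply to these intensities, and the number of arrays limits the precision.

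Not all markers of the labelled cell type, intestinal crypt epithelium, were present, and some differed between the label sets. Cdh1, the adhesion molecule of epithelial cells, was bright at 7680.02 to 8412 without the suffix and at 2637 to 3671 in set b. Cdx2, the transcription factor of intestinal epithelium, had 55.0 to 124 without the suffix but 3532 to 5314 in the other set. Krt8 lay between 2669.8 and 6504 and Tspan8 between 21131 and 31839, while Epcam, Krt18, Cldn3 and Cldn7 stayed under 100 on each of them. Of 15 epithelial markers on the array 9 reached the signal minimum.

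The cells with NS-398 and those with SC-560 differed in genes of detoxification, the hypoxia response, lipid carriage, inflammation, the matrix and the actin cytoskeleton. At an adjusted p under 0.05, the rule by which a probe set is called here, limma called 1619 of 17117 probe sets (9.46%), 887 higher with NS-398 and 732 lower. Over named genes, each taken by its brightest probe set, 1008 of 9693 were called (10.4%), of which 575 were higher (5.93%) and 433 lower (4.47%) with NS-398. Most of these differences were small: the median size over called genes was 0.38 on the log2 scale, 321 probe sets differed by at least 1.5-fold and 43 by at least 2-fold. The 4 signals of NS-398 lay wholly above or below the 4 of SC-560 in 639 of the 9693 genes (6.59%). The median log2 difference over all named genes was -0.01. Other probe sets of a gene can differ from its brightest one. Of 43 called list members with a further tested probe set, 21 had every further one called in the same direction and 22 had at least 1 that was not called, of which 1, Akr1b1, had the opposite sign. Of 149 list members not called, 10 had a further probe set that was. All 1619 probe sets had the same sign in both label sets, which calling on the average over the sets favours. Within the arrays without the suffix alone, 2 against 2, 1325 probe sets were called, and within set b alone 1977. Leaving out 1 array gave 895 to 1324 probe sets, and the count fell by more than 1.5 times without SC-560 array 1b (895) or 2b (1031) or NS-398 array 1 (983), 2 (958) or 2b (1017). Fewer cells of a kind and less RNA per cell cannot be told apart in samples of this sort.

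Fabp4, a carrier of fatty acids in the cytosol, had the largest difference among the genes named here. In the order of arrays 1, 2, 1b and 2b, which is kept below, its signals were 1931, 2052, 898 and 1021 with NS-398 and 667, 518, 167 and 144 with SC-560. Every NS-398 array was above every SC-560 array, and the log2 difference was 1.99 ± 0.13 (SE, limma adjusted p 5.59e-06). On the log2(signal + 50) scale used throughout this is 3.96-fold, and the 50 added to each signal lowers the fold of dim genes. The DMSO signals, 635, 572, 176 and 143, lay beside those of SC-560.

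Enzymes of detoxification and of retinol and steroid metabolism were among the other genes furthest up with NS-398. Gsta4, a glutathione transferase that acts on lipid aldehydes, had signals of 10978, 10008, 3268 and 3796 on the NS-398 arrays and of 4166, 4108, 1470.1 and 1554 on the SC-560 arrays. Within each label set the NS-398 signals were above the SC-560 signals by a similar factor, with a log2 difference of 1.26 ± 0.06 (SE, limma adjusted p 9.05e-07). Hsd11b1, the enzyme that regenerates active glucocorticoid, had signals of 4280.0, 4226, 1733 and 1692 on the NS-398 arrays and of 2082, 1960.3, 627 and 783 on the SC-560 arrays. Its NS-398 signals were higher within each set, although those of set b lay under the SC-560 signals without the suffix, with a log2 difference of 1.14 ± 0.08 (SE, limma adjusted p 6.50e-06). Aldh1a1, a retinaldehyde dehydrogenase, had signals of 5167, 4408, 188 and 195 on the NS-398 arrays and of 762, 641, 88.1 and 59.8 on the SC-560 arrays. The difference was wide without the suffix and narrower in set b, where the gene was dim, with an average log2 difference of 1.83 ± 0.26 (SE, limma adjusted p 0.00108). By set the difference of Aldh1a1 was 2.69 on arrays lacking the suffix against 0.97 in set b (interaction adjusted p 3.47e-04). Adh1c, an alcohol dehydrogenase, differed by 1.35 ± 0.28, adjusted p 0.0103.

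Other large rises concerned transport, polyamines, signalling and the cell surface. Slc7a11, the cystine carrier that supplies glutathione synthesis, had signals of 291, 303, 783 and 1152 on the NS-398 arrays and of 92.6, 82.3, 522 and 446 on the SC-560 arrays. The order of the drugs was the same in both sets, and the log2 difference was 1.12 ± 0.13 (SE, limma adjusted p 3.14e-04). Sat1, the enzyme that acetylates spermidine and spermine, had signals of 4860.0, 5348, 1593 and 1668 on the NS-398 arrays and of 2117, 2237, 679.5 and 885 on the SC-560 arrays. NS-398 was again higher within each set, by a log2 difference of 1.12 ± 0.08 (SE, limma adjusted p 1.12e-05). Scara5, a receptor of ferritin, had signals of 1309.8, 1673, 1526 and 1413 on the NS-398 arrays and of 719.5, 628, 612 and 664 on the SC-560 arrays. Here the groups did not overlap, with a log2 difference of 1.11 ± 0.09 (SE, limma adjusted p 1.46e-05). The groups did not overlap either for Plpp3, a lipid phosphatase of the cell surface (1.16 ± 0.10, adjusted p 4.05e-05), Cyth3, an exchange factor of ARF GTPases (1.11 ± 0.10, adjusted p 5.32e-05), Ank3, an anchor of membrane proteins (1.16 ± 0.15, adjusted p 5.36e-04), and Adamts1, a secreted protease (1.06 ± 0.09, adjusted p 2.47e-05). F3, tissue factor, the starter of blood clotting, differed by 1.06 ± 0.12, adjusted p 2.77e-04. Lbp, which binds bacterial lipopolysaccharide, differed by 1.25 ± 0.20, adjusted p 0.0023, with NS-398 signals of 773, 692, 2119.8 and 2018 and SC-560 signals of 499.6, 443, 505 and 515.

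**Figure D1:**
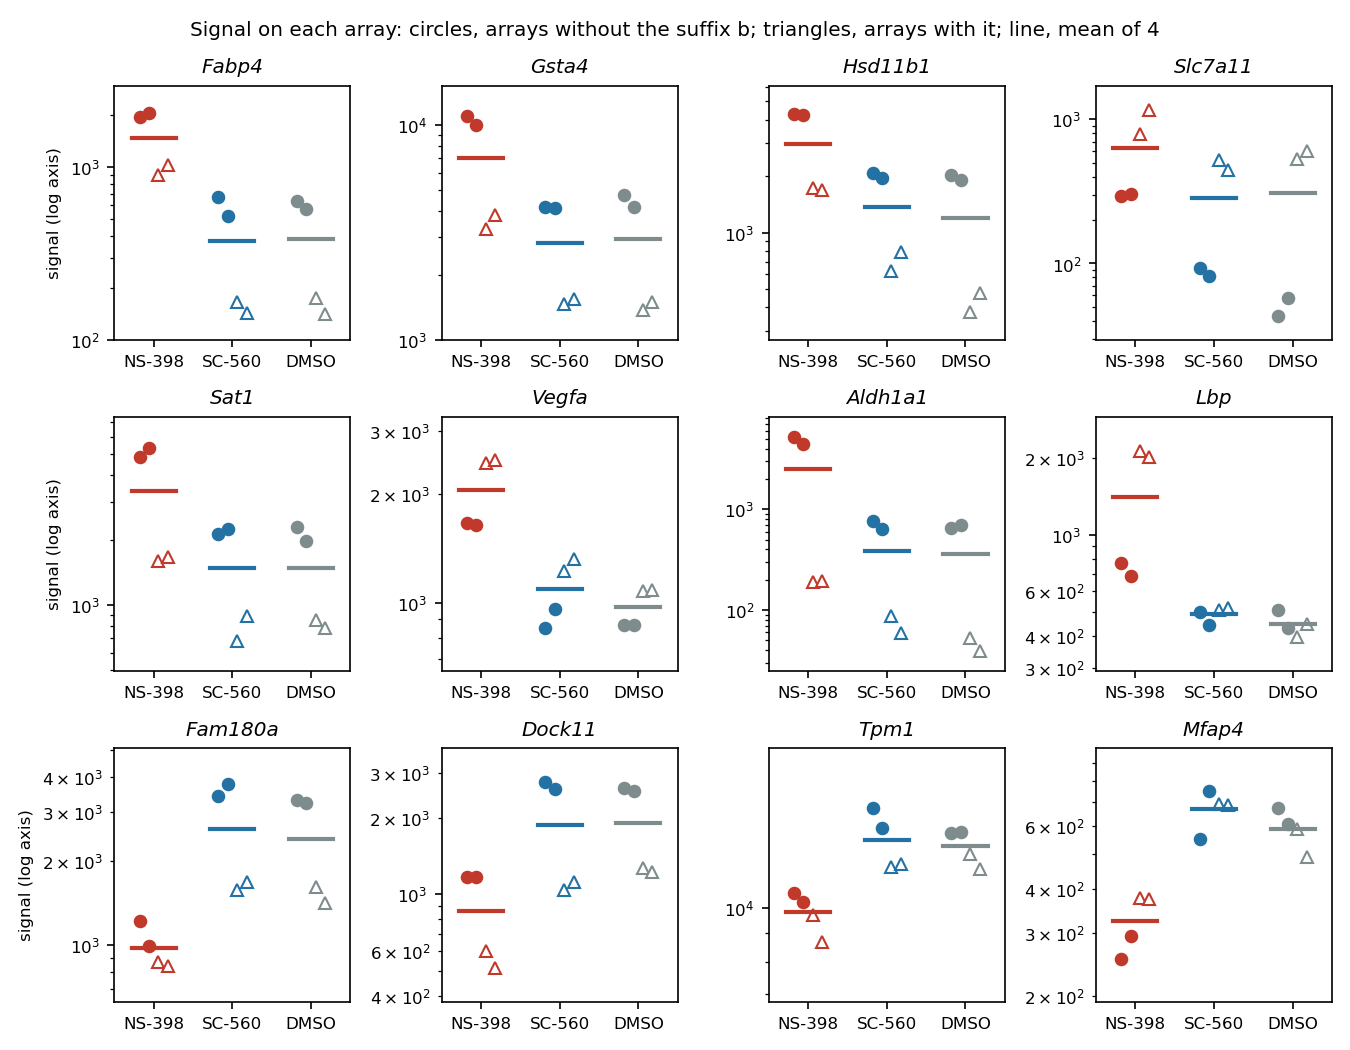
Signal (log axis) of 12 genes on each NS-398, SC-560 and DMSO array; circles are arrays without the suffix b, open triangles arrays with it, and lines the mean of the 4 arrays of a group. Fabp4, Lbp and Mfap4 separate NS-398 from SC-560 on every array, and the SC-560 and DMSO points of Fabp4, Gsta4 and Dock11 lie side by side.

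Among the named genes lower with NS-398 were Fam180a, Dock11, Mfap4 and Afap1l2, which are known for different things. Fam180a, a gene of unknown function, had signals of 1220.5, 994, 871 and 842 on the NS-398 arrays and of 3401, 3759, 1582 and 1679 on the SC-560 arrays. No NS-398 signal reached the lowest SC-560 signal, and the log2 difference was -1.27 ± 0.13 (SE, limma adjusted p 1.37e-04). Dock11, an activator of the GTPase Cdc42, had signals of 1171, 1168, 600.3 and 513 on the NS-398 arrays and of 2758, 2585, 1040.5 and 1119 on the SC-560 arrays. NS-398 was lower within each set, and the log2 difference was -1.03 ± 0.08 (SE, limma adjusted p 1.35e-05). Mfap4, a glycoprotein of elastic microfibrils, had signals of 253, 295, 376 and 374 on the NS-398 arrays and of 551, 751, 691 and 684 on the SC-560 arrays. These groups did not overlap, with a log2 difference of -0.95 ± 0.11 (SE, limma adjusted p 2.97e-04). Afap1l2, an actin-associated adaptor, had signals of 2015, 2076, 1061 and 928 on the NS-398 arrays and of 3854, 3769.6, 1725 and 1901 on the SC-560 arrays. NS-398 was lower in both sets, with a log2 difference of -0.86 ± 0.07 (SE, limma adjusted p 1.12e-05). The groups did not overlap for the tendon transcription factor Scx (-0.87 ± 0.08, adjusted p 5.32e-05), the histone gene Hist2h2be (-0.93 ± 0.10, adjusted p 2.56e-04), Them5, a mitochondrial thioesterase (-1.07 ± 0.19, adjusted p 0.00479), and the death receptor Tnfrsf25 (-0.86 ± 0.10, adjusted p 2.99e-04). Thbs2, a matrix glycoprotein, differed by -0.92 ± 0.15, adjusted p 0.00316, and Scin, which severs actin filaments, by -1.08 ± 0.21, adjusted p 0.00707.

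Some of the largest average differences depended on single arrays. Tff2, a trefoil peptide of mucous epithelia, was higher (1.37 ± 0.35, adjusted p 0.0279, the average of 0.32 on arrays lacking the suffix and 2.41 in set b), a call that ended without any 1 of the 4 arrays of set b (adjusted p up to 0.0852). F13a1, a transglutaminase subunit, differed by -1.37 ± 0.38, adjusted p 0.043, the average of -0.24 on arrays lacking the suffix and -2.50 in set b, and its adjusted p rose to as much as 0.133 without NS-398 arrays 1, 1b or 2b or SC-560 arrays 2, 1b or 2b. Without certain single arrays the calls ended for Nckap5l, a microtubule-binding protein, lower at -1.17 ± 0.32, adjusted p 0.0366, the average of -2.23 on arrays lacking the suffix and -0.11 in set b (adjusted p up to 0.109 without any 1 of the 4 arrays without the suffix), Sult1a1, a sulfotransferase of phenols, lower at -0.97 ± 0.23, adjusted p 0.0203, the average of -1.65 on arrays lacking the suffix and -0.29 in set b (adjusted p up to 0.0698 without any 1 of the 4 arrays without the suffix) and Eno3, the enolase of muscle, lower at -0.89 ± 0.19, adjusted p 0.0144, the average of -0.28 on arrays lacking the suffix and -1.49 in set b (adjusted p up to 0.0543 without SC-560 arrays 1b or 2b). Of 129 named genes that were called, 91 kept the call whichever array was left out.

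The DMSO arrays show on which side a difference lies. Over the 1008 called genes NS-398 was farther from DMSO than SC-560 was in 946, and SC-560 farther in 62. The median distance from DMSO of these genes was 0.34 on the log2 scale for NS-398 and 0.07 for SC-560, against 0.12 and 0.07 over all named genes. These distances share the DMSO arrays and are given as values with no test. Fras1, an adhesion protein of epithelial basement membranes, was one with SC-560 farther: it had signals of 248, 119, 79.2 and 28.7 with NS-398, 352, 268, 258 and 223 with SC-560 and 164, 256, 96.4 and 50.6 with DMSO. Its groups overlapped, and the log2 difference was -1.10 ± 0.23 (SE, limma adjusted p 0.0102) and SC-560 stood 0.87 ± 0.23 from DMSO and NS-398 -0.23 ± 0.23. Capn8, a calpain, had SC-560 signals of 129, 121, 107 and 117 above NS-398 signals of 66.2, 77.0, 60.1 and 73.1 and DMSO signals of 75.0, 82.9, 56.7 and 62.1, all of which are dim. Capn8 was lower (-0.50 ± 0.14, adjusted p 0.039) but lost its call without any 1 of the 8 arrays (adjusted p up to 0.0978).

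**Figure D2:**
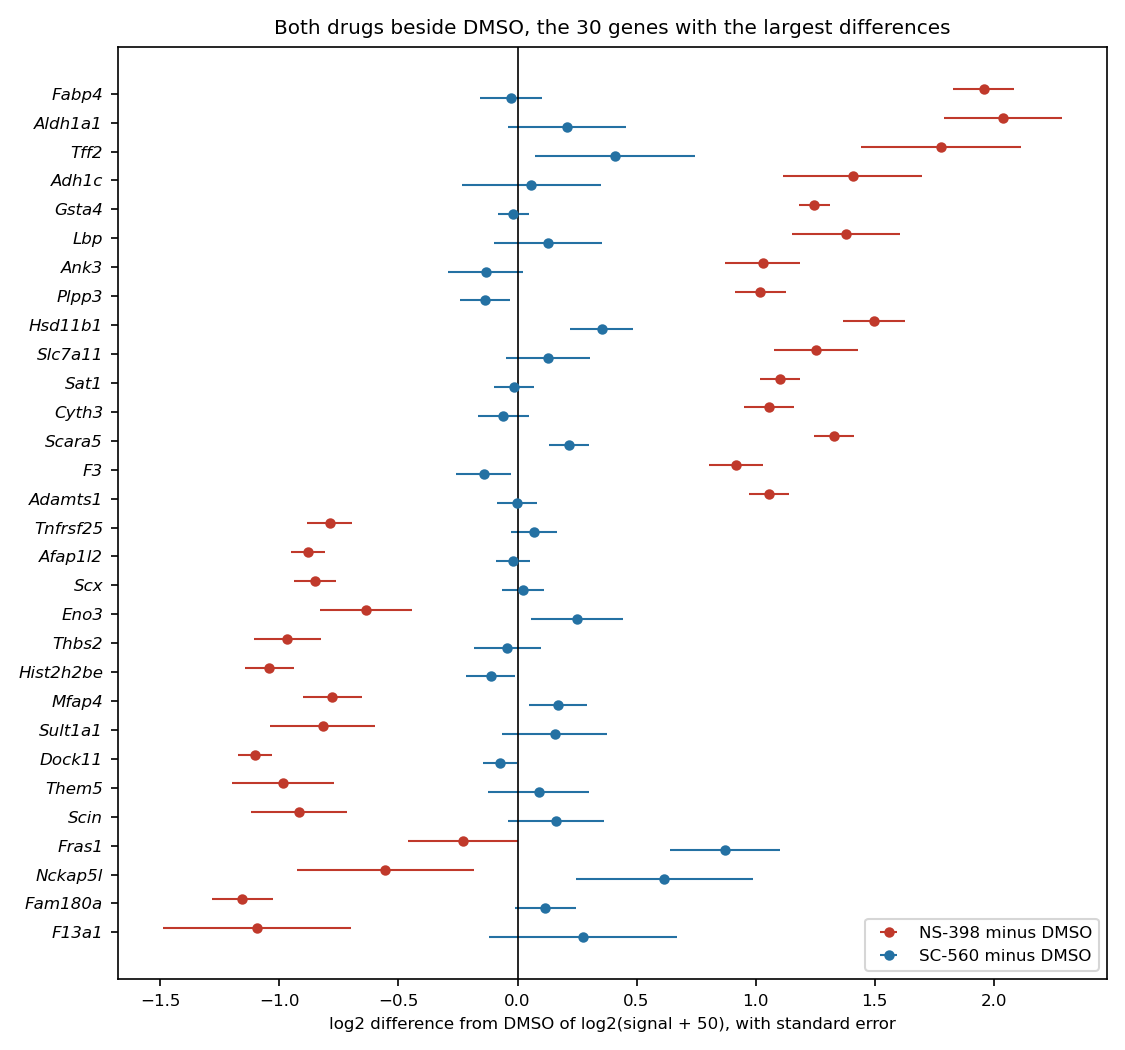
Log2 difference from DMSO, with its standard error, of NS-398 (red) and SC-560 (blue) for the 15 largest rises and 15 largest falls of NS-398 against SC-560. Most blue points lie near 0 and most red points do not, with Fras1 and Nckap5l as genes in which SC-560 lay above DMSO.

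The genes of the drugs' own targets were dim or did not pass the test over the 8 arrays. Both probe sets of Ptgs1 stayed between 2.49 and 51.7 on the 8 arrays, under the signal minimum of 100, and were not tested. Ptgs2 had signals of 2496, 2913, 1784 and 1502 on the NS-398 arrays and of 2452, 2368, 1081 and 1311 on the SC-560 arrays. The groups overlapped and the gene did not pass the test, with a log2 difference of 0.30 ± 0.09 (SE, limma adjusted p 0.0555). In limma fits of each set alone Ptgs2 was called higher in set b (0.44, adjusted p 0.0246). It was not called on arrays lacking the suffix (0.16, adjusted p 0.304), and the interaction did not pass (adjusted p 0.344). Of 11 tested genes of prostaglandin synthesis, transport and reception 3 were called higher and 1 lower with NS-398, and their median log2 difference was 0.07. Abcc4, the exporter of prostaglandins, had signals of 316, 364, 1241 and 1284 with NS-398 and 199, 204, 799.7 and 810.2 with SC-560. It was higher within each set by a log2 difference of 0.62 ± 0.08 (SE, limma adjusted p 6.16e-04). Ptgr1, a prostaglandin reductase, was higher without overlap (0.69 ± 0.11, adjusted p 0.00204), and Ptgis, prostacyclin synthase, was lower (-0.53 ± 0.08, adjusted p 0.00165). Ptger4, a receptor of prostaglandin E2, was higher (0.73 ± 0.19, adjusted p 0.0348, the average of 0.18 on arrays lacking the suffix and 1.27 in set b), a call that ended without NS-398 arrays 2, 1b or 2b or SC-560 arrays 1b or 2b (adjusted p up to 0.114). Ptges and Ptges2, synthases of prostaglandin E2, differed by 0.07 ± 0.15 and 0.02 ± 0.10, and neither passed. A second probe set of Ptges, dimmer than the first, had signals of 61.9, 70.0, 135 and 129 on the NS-398 arrays and of 54.1, 44.9, 42.4 and 64.6 on the SC-560 arrays. There NS-398 lay above SC-560 within each set, most clearly in set b, but the probe set did not pass either (0.52 ± 0.17, adjusted p 0.0817).

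Fabp4 was the one gene of fatty acid handling with a large difference. Of 19 tested genes of fatty acid binding and PPAR targets, 4 were called higher and 2 lower, with a median log2 difference of 0.09, and Pparg itself stayed under 100 on the 8 arrays. Acadl, which begins the oxidation of long-chain fatty acids, was higher beside Fabp4 (0.29 ± 0.06, adjusted p 0.0128), and Ucp2, a carrier of the inner mitochondrial membrane, was lower without overlap (-0.48 ± 0.07, adjusted p 0.00158). Pdk4, a kinase that restrains pyruvate dehydrogenase, was dim, with NS-398 signals of 58.1, 89.2, 145 and 118 and SC-560 signals of 43.7, 38.5, 31.2 and 60.8. It reached the signal minimum of 100 on NS-398 arrays only, and so was tested only because it was high there. Pdk4 differed by 0.68 ± 0.18, adjusted p 0.037, and its adjusted p rose to as much as 0.113 without NS-398 arrays 2, 1b or 2b or SC-560 arrays 2, 1b or 2b. The calls ended when 1 array was left out for Acsl1, which activates fatty acids, higher at 0.55 ± 0.13, adjusted p 0.0193 (adjusted p up to 0.0596 without any 1 of the 4 arrays without the suffix) and Fabp5, a relative of Fabp4, lower at -0.42 ± 0.11, adjusted p 0.0316 (adjusted p up to 0.113 without NS-398 arrays 1, 1b or 2b or SC-560 arrays 1, 1b or 2b). Of 23 genes of sterol and fatty acid synthesis 3 were higher and none lower, with a median of 0.05. Insig1, which holds back sterol synthesis, kept its call whichever array was left out (0.26 ± 0.05, adjusted p 0.00799). Dependent on single arrays were the calls of Scd, a fatty acid desaturase, higher at 0.48 ± 0.13, adjusted p 0.0358 (adjusted p up to 0.0971 without NS-398 arrays 2 or 1b or SC-560 arrays 1, 2, 1b or 2b) and Elovl6, a fatty acid elongase, higher at 0.44 ± 0.12, adjusted p 0.0397 (adjusted p up to 0.12 without any 1 of the 8 arrays other than NS-398 array 1b).

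Genes of the antioxidant response were often higher with NS-398. NRF2, encoded by Nfe2l2, is the transcription factor that turns on such genes when reactive molecules modify its inhibitor KEAP1. Of 15 tested NRF2 targets for quinones, heme and thioredoxin 6 were called higher and none lower, all 15 lay above 0 and their median log2 difference was 0.32. All 6 kept their call whichever array was left out. Hmox1, heme oxygenase, had signals of 949, 927, 653 and 826 on the NS-398 arrays and of 446, 595, 307 and 375 on the SC-560 arrays. These groups did not overlap, with a log2 difference of 0.91 ± 0.11 (SE, limma adjusted p 4.16e-04). Nqo1, a quinone reductase, had signals of 14525, 14515, 12582 and 12717 on the NS-398 arrays and of 9675, 9478, 9581 and 8277 on the SC-560 arrays. Every NS-398 array was higher, with a log2 difference of 0.55 ± 0.05 (SE, limma adjusted p 6.00e-05). The groups did not overlap either for Osgin1, an oxidative stress gene (0.89 ± 0.13, adjusted p 0.00138), Txnrd1, thioredoxin reductase (0.55 ± 0.09, adjusted p 0.00216), and Nfe2l2 itself (0.31 ± 0.05, adjusted p 0.00343). Srxn1, sulfiredoxin, differed by 0.65 ± 0.11, adjusted p 0.00281.

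Genes of glutathione were higher as well. Of 21 tested genes of glutathione synthesis and transfer 13 were higher and none lower, with a median of 0.36, and 10 of the 13 kept their call whichever array was left out. Gclm, the regulatory subunit of the enzyme that limits glutathione synthesis, had signals of 2831, 2910.1, 1100.4 and 1008 on the NS-398 arrays and of 918, 908, 768 and 798 on the SC-560 arrays. The groups did not overlap, and the rise was larger without the suffix than in set b, with an average log2 difference of 1.00 ± 0.18 (SE, limma adjusted p 0.00471). By set the difference of Gclm was 1.60 on arrays lacking the suffix against 0.40 in set b (interaction adjusted p 1.23e-04). Gclc, the catalytic subunit, had signals of 2713, 2439, 1935 and 1795 on the NS-398 arrays and of 1156, 1295, 1358 and 1309.8 on the SC-560 arrays. Its groups did not overlap, with an average log2 difference of 0.75 ± 0.10 (SE, limma adjusted p 9.44e-04). Its difference was 1.04 on arrays lacking the suffix against 0.47 in set b (interaction adjusted p 0.0208). The transferases Gstt2 (0.95 ± 0.14, adjusted p 0.00159), Gsta1 (0.72 ± 0.09, adjusted p 6.29e-04), Gstm1 (0.58 ± 0.06, adjusted p 2.56e-04), Mgst2 (0.31 ± 0.06, adjusted p 0.00564) and Gstp1 (0.22 ± 0.04, adjusted p 0.00988) were higher, as was Gsr, glutathione reductase (0.48 ± 0.10, adjusted p 0.0111). Lost with 1 array left out were the calls of Mgst3, a microsomal glutathione transferase, higher at 0.38 ± 0.10, adjusted p 0.0315 (adjusted p up to 0.101 without any 1 of the 8 arrays other than SC-560 array 1), Ggt1, which breaks down glutathione outside the cell, higher at 0.36 ± 0.09, adjusted p 0.0258 (adjusted p up to 0.0945 without NS-398 arrays 1, 2 or 2b or SC-560 arrays 1b or 2b) and Gsto1, an omega-class transferase, higher at 0.21 ± 0.05, adjusted p 0.0331 (adjusted p up to 0.0997 without any 1 of the 8 arrays). Gss, which adds the last amino acid of glutathione, differed by -0.22 ± 0.08 and did not pass.

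Promoters of these genes are shown because the antioxidant response element, the DNA site of NRF2, is defined by its letters. RefSeq promoters of the assembly GRCr8, each 300 bases long from 250 bases before the listed start to 50 after it, were found for 15 of the 19 called members of both lists. The core of the element, TGACNNNGC, was searched on both strands. It occurred in 4 of the 15 (26.7%), which were Gclm, Gstp1, Gsta1 and Nfe2l2, in 1 of 15 tested members not called higher (6.67%), and in 12.1% of all 33469 promoters and 14.8% of 8137 promoters of tested genes. The numbers of members are too small for more than a description, and a match is not shown to be a bound site. The matches of Gclm and Gstp1 begin 172 and 61 bases before the start, and capitals mark the core, which lies on the opposite strand in Gclm.
Gclm, chr2:213031885-213032184, plus strand: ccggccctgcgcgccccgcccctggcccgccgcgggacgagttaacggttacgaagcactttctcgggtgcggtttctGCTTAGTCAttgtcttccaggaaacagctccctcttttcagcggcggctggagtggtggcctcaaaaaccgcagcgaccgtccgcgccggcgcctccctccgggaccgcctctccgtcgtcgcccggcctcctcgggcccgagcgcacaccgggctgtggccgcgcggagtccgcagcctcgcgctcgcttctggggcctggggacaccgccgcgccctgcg
Gstp1, chr1:210769656-210769955, minus strand: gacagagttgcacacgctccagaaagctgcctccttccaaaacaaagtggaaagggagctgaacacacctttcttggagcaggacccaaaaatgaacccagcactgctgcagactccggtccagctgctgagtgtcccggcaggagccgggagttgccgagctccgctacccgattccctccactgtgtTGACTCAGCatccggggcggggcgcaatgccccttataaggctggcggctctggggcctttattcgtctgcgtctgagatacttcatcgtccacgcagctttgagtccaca

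Some reductases and dehydrogenases of carbonyl compounds were higher as well. Of 17 tested 5 were higher and none lower with NS-398, with a median of 0.18, and 10 of the 17 lay above 0. Akr1c14, an aldo-keto reductase that was dim, differed by -0.43 ± 0.15 and did not pass. A further probe set of Akr1c14 was lower (-0.68 ± 0.18, limma adjusted p 0.0319), and another was not called (-0.43, adjusted p 0.109). Akr1b8, an aldo-keto reductase, had signals of 24656, 25019, 25019 and 25866 on the NS-398 arrays and of 11860.0, 12901, 16022 and 15504 on the SC-560 arrays. The groups did not overlap and the rise was larger without the suffix, with an average log2 difference of 0.85 ± 0.06 (SE, limma adjusted p 8.98e-06). By set the difference of Akr1b8 was 1.00 on arrays lacking the suffix against 0.69 in set b (interaction adjusted p 0.0363). Aldh2, the mitochondrial aldehyde dehydrogenase, was higher (0.37 ± 0.05, adjusted p 0.00102), and so was Akr1b1, aldose reductase (0.45 ± 0.06, adjusted p 7.46e-04), of which a second probe set gave -0.09 (adjusted p 0.744). Adh7, an alcohol dehydrogenase that acts on retinol, was higher (0.61 ± 0.13, adjusted p 0.0143) but lost its call without NS-398 array 2 (adjusted p 0.0567). Of 7 genes under the aryl hydrocarbon receptor 2 were higher, Nqo1 and Tiparp (0.33 ± 0.07, adjusted p 0.00858), and 1 was lower. A second probe set of Tiparp gave 0.04 and was not called (adjusted p 0.731). Ahr, the receptor itself, was lower (-0.27 ± 0.08, adjusted p 0.0479), a call that ended without any 1 of the 8 arrays other than NS-398 array 2b (adjusted p up to 0.139).

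Enzymes of sugar metabolism were higher in part. Of 9 tested genes of the pentose phosphate pathway and NADPH supply 3 were higher and none lower, with a median of 0.18. Tkt, transketolase, had signals of 5781, 6055, 6554 and 6917 on the NS-398 arrays and of 3843, 3946, 5026 and 4771 on the SC-560 arrays. Both sets showed the rise and no signals overlapped, with a log2 difference of 0.53 ± 0.05 (SE, limma adjusted p 1.30e-04). Taldo1, transaldolase, was higher without overlap as well (0.44 ± 0.05, adjusted p 4.16e-04). Rpia, a ribose phosphate isomerase, differed by 0.30 ± 0.06, adjusted p 0.0143, and its adjusted p rose to 0.0538 without SC-560 array 1b. Of 16 glycolytic genes 6 were higher and none lower, with a median of 0.19 (0.07 on arrays lacking the suffix, 0.44 in set b), and 3 were higher without NS-398 arrays 2, 1b or 2b or SC-560 arrays 1b or 2b. Hk2, the hexokinase, had signals of 353, 429.8, 396 and 610.0 with NS-398 and 204, 241, 196 and 232 with SC-560. These did not overlap, with a log2 difference of 0.87 ± 0.14 (SE, limma adjusted p 0.00218). Tpi1, triose phosphate isomerase (0.52 ± 0.05, adjusted p 1.60e-04), and the glucose transporter Slc2a1 (0.51 ± 0.07, adjusted p 0.00102) were higher and kept their call whichever array was left out. Without certain single arrays the calls ended for Pfkp, a phosphofructokinase, higher at 0.46 ± 0.13, adjusted p 0.0435 (adjusted p up to 0.137 without NS-398 arrays 2, 1b or 2b or SC-560 arrays 1, 1b or 2b), Pgk1, phosphoglycerate kinase, higher at 0.19 ± 0.05, adjusted p 0.0372 (adjusted p up to 0.108 without any 1 of the 8 arrays other than SC-560 array 1) and Pgam1, phosphoglycerate mutase, higher at 0.17 ± 0.05, adjusted p 0.0457 (adjusted p up to 0.144 without any 1 of the 8 arrays other than SC-560 array 2). The effect differed between the label sets in 4 of the 16, Ldha, Gpi, Aldoa and Eno2, none of which was called on the average of the sets.

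Genes of the hypoxia response, most of them targets of the transcription factor HIF-1, were often higher with NS-398. Of 21 tested 10 were called higher and none lower, with a median of 0.28 (0.18 without the suffix, 0.48 in set b), and 9 of the 10 kept their call whichever array was left out. Vegfa, the vascular growth factor, had signals of 1662, 1644, 2444 and 2481 on the NS-398 arrays and of 851, 959, 1228 and 1321 on the SC-560 arrays. All 4 NS-398 signals exceeded all 4 SC-560 signals, and the log2 difference was 0.88 ± 0.07 (SE, limma adjusted p 1.12e-05). Ddit4, an inhibitor of mTORC1, had signals of 1918, 1872, 4649.6 and 4496 on the NS-398 arrays and of 1006, 1088, 2238 and 2180.1 on the SC-560 arrays. NS-398 was higher within each set, with a log2 difference of 0.93 ± 0.06 (SE, limma adjusted p 8.87e-06). Ankrd37, an ankyrin repeat protein (0.91 ± 0.13, adjusted p 0.00115), Ero1a, an oxidase of the endoplasmic reticulum (0.71 ± 0.09, adjusted p 5.14e-04), Adm, the peptide adrenomedullin (0.75 ± 0.13, adjusted p 0.0031), and Ndrg1, a stress-responsive gene (0.38 ± 0.07, adjusted p 0.004), were higher too. Car9, a carbonic anhydrase of the cell surface, and Higd1a, a mitochondrial protein, were higher mainly in set b. Car9 differed by 0.23 on arrays lacking the suffix against 0.78 in set b (interaction adjusted p 0.00569), and Higd1a by 0.22 on arrays lacking the suffix against 0.86 in set b (interaction adjusted p 0.00335). Hif1a, the oxygen-regulated subunit of HIF-1, was higher by a smaller amount (0.33 ± 0.07, adjusted p 0.00949). Egln1, an oxygen-sensing prolyl hydroxylase, was higher (0.31 ± 0.08, adjusted p 0.0255) but lost its call without NS-398 arrays 2, 1b or 2b or SC-560 arrays 1, 1b or 2b (adjusted p up to 0.0845). Some targets did not pass: Bnip3l differed by -0.24 ± 0.08 and Slc2a3 by -0.07 ± 0.10, and neither passed.

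The core of the hypoxia response element, ACGTG, was searched in the same promoters on both strands, where it overlaps the E-box CACGTG. It occurred in 8 of the 13 called members of the hypoxia and glycolysis lists that had a promoter (61.5%, of 16 called), in 11 of the 19 tested members not called higher (57.9%), and in 19.3% of all promoters and 26.4% of those of tested genes. The share was thus near that of the members not called. Ankrd37 and Ddit4 are shown because of the called hypoxia genes with a promoter here they are the 2 that hold the core and were higher in each label set alone. The matches of Ankrd37 begin 236, 23, 22 and 4 bases before the start, the match of Ddit4 begins 138 bases before it, and capitals mark the core.
Ankrd37, chr16:53001257-53001556, plus strand: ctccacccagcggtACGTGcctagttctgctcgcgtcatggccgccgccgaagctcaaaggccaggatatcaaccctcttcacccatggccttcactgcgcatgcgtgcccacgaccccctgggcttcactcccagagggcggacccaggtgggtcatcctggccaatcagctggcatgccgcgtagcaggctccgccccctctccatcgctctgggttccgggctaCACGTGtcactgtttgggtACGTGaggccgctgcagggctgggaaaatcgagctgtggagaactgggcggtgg
Ddit4, chr20:28436988-28437287, minus strand: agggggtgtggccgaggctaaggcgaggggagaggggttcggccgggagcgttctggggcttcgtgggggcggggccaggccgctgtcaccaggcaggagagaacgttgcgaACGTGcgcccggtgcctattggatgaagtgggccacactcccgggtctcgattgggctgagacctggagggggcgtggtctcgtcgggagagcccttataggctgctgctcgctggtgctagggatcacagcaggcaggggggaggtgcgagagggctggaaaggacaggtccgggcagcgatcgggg

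Stress responses of protein synthesis and folding were mixed. Of 26 tested genes under ATF4 and CHOP 6 were higher and 3 lower, with a median of 0.14. Besides Ddit4 these were Slc3a2, the heavy chain of amino acid transporters (0.36 ± 0.05, adjusted p 0.00163), Cebpb, a transcription factor (0.27 ± 0.05, adjusted p 0.0048), and Ddit3, which encodes CHOP (0.40 ± 0.08, adjusted p 0.0115), while Pck2, a mitochondrial enzyme of gluconeogenesis, was lower (-0.45 ± 0.09, adjusted p 0.00854). The calls ended when 1 array was left out for Mthfd2, a mitochondrial enzyme of folate metabolism, higher at 0.62 ± 0.15, adjusted p 0.0248, the average of 1.05 on arrays lacking the suffix and 0.18 in set b (adjusted p up to 0.0771 without NS-398 arrays 1 or 2), Ppp1r15a, which restores translation after stress, higher at 0.41 ± 0.11, adjusted p 0.0305, the average of 0.13 on arrays lacking the suffix and 0.69 in set b (adjusted p up to 0.1 without NS-398 arrays 1b or 2b or SC-560 arrays 1, 1b or 2b), Atf5, a transcription factor, lower at -0.38 ± 0.10, adjusted p 0.04 (adjusted p up to 0.127 without NS-398 arrays 1, 1b or 2b or SC-560 arrays 1, 1b or 2b) and Aldh18a1, an enzyme of proline synthesis, lower at -0.30 ± 0.07, adjusted p 0.0266 (adjusted p up to 0.0924 without NS-398 arrays 1, 1b or 2b or SC-560 arrays 1b or 2b). Of 24 genes of the unfolded protein response 1 was higher, Sdf2l1 (0.33 ± 0.06, adjusted p 0.00718), and 1 was lower. Dnajc3, a co-chaperone, was lower (-0.26 ± 0.07, adjusted p 0.0414), a call that ended without any 1 of the 8 arrays other than SC-560 array 1 (adjusted p up to 0.131). Hspa5, the main chaperone of the endoplasmic reticulum, differed by 0.06 ± 0.05. Of 19 aminoacyl-tRNA synthetases none was higher and 1 lower, with a median of -0.07 (0.05 without the suffix, -0.20 in set b). The effect differed between the sets in 4 of the 19. In set b alone Aars1, Gars1, Iars1, Rars1, Tars1 and Yars1 were called lower, and without the suffix alone Farsb was called higher. Of 14 heat shock proteins likewise none was higher and 1 lower. Dependent on single arrays were the calls of Yars1, the tyrosyl-tRNA synthetase, lower at -0.29 ± 0.08, adjusted p 0.043 (adjusted p up to 0.131 without NS-398 arrays 2, 1b or 2b or SC-560 arrays 2, 1b or 2b) and Cryab, a small heat shock protein, lower at -0.35 ± 0.08, adjusted p 0.0166 (adjusted p up to 0.0583 without NS-398 arrays 1 or 2). Of 16 p53 targets 1 was higher, the growth arrest gene Gadd45a (0.44 ± 0.09, adjusted p 0.00778), and Cdkn1a, which encodes p21, differed by 0.01 ± 0.16.

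Genes of cell division are set beside the 10.4% of all named genes that were called. Of 29 mitotic genes 2 were higher and 1 lower, which is near that share, and their median was 0.03 (0.14 without the suffix, -0.12 in set b). For 5 of the 29 the effect differed between the sets, such as Ccna2 (0.16 on arrays lacking the suffix against -0.71 in set b). Of 26 replication genes 1 was higher, with a median of 0.02 (0.16 without the suffix, -0.09 in set b). Mad2l1, of the spindle checkpoint, kept its call whichever array was left out (0.36 ± 0.07, adjusted p 0.00756). Lost with 1 array left out were the calls of Cks2, a subunit of cyclin-dependent kinases, higher at 0.24 ± 0.06, adjusted p 0.02 (adjusted p up to 0.0708 without NS-398 arrays 1 or 2 or SC-560 array 1), Plk1, a mitotic kinase, lower at -0.33 ± 0.08, adjusted p 0.0291 (adjusted p up to 0.0919 without NS-398 arrays 1, 2 or 1b or SC-560 arrays 1 or 1b) and Pcna, the replication clamp, higher at 0.16 ± 0.04, adjusted p 0.0411 (adjusted p up to 0.129 without any 1 of the 8 arrays). Mki67, the proliferation marker, differed by -0.10 ± 0.06 and did not pass. Of 19 genes of G1 cyclins, their inhibitors, Myc and Wnt targets 4 were higher and 1 lower. Ccnd1, cyclin D1, had signals of 6641, 6667, 6481 and 7602 on the NS-398 arrays and of 4148, 4475, 4994 and 5133 on the SC-560 arrays. NS-398 was higher on every array, with a log2 difference of 0.54 ± 0.06 (SE, limma adjusted p 2.56e-04). Cd44, the hyaluronan receptor (0.68 ± 0.09, adjusted p 8.42e-04), and Wnt5a, a ligand of Frizzled receptors (0.54 ± 0.10, adjusted p 0.00778), were higher. Without certain single arrays the calls ended for Ccne1, cyclin E1, higher at 0.43 ± 0.09, adjusted p 0.0138 (adjusted p 0.0514 without SC-560 array 1b) and Axin2, a feedback inhibitor of Wnt signalling, lower at -0.51 ± 0.13, adjusted p 0.0271 (adjusted p up to 0.0985 without NS-398 arrays 1, 2 or 2b or SC-560 arrays 1, 2 or 1b).

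Growth factor genes held a few differences. Of 16 genes of the EGF receptor, its ligands and motogens 2 were higher and none lower, with a median of -0.01. This is near the 10.4% of all named genes that were called. Igf2, an insulin-like growth factor that is imprinted, had signals of 1876, 2096, 143 and 153 on the NS-398 arrays and of 1059, 1132, 78.2 and 76.4 on the SC-560 arrays. It was higher within each set, although set b had low signals with both drugs, with a log2 difference of 0.73 ± 0.09 (SE, limma adjusted p 3.83e-04). H19, the noncoding RNA of the same imprinted locus, was higher as well (0.53 ± 0.10, adjusted p 0.00708), with NS-398 0.24 ± 0.09 and SC-560 -0.29 ± 0.09 from DMSO. By set the difference of H19 was 0.83 on arrays lacking the suffix against 0.24 in set b (interaction adjusted p 0.00819). Fgf7, keratinocyte growth factor, differed by 0.66 ± 0.19, adjusted p 0.0474, the average of 0.12 on arrays lacking the suffix and 1.20 in set b, and its adjusted p rose to as much as 0.148 without NS-398 arrays 1, 1b or 2b or SC-560 arrays 1, 1b or 2b. Egfr, the EGF receptor, differed by 0.18 ± 0.06 and did not pass. Of 21 genes of TGF-beta signalling 3 were higher and 2 lower, among them Id2, an inhibitor of differentiation factors, higher (0.54 ± 0.09, adjusted p 0.00234), and Tgfb3, a ligand, and Tgfbi, a secreted matrix protein induced by it, lower (-0.51 ± 0.07, adjusted p 9.11e-04 and -0.67 ± 0.11, adjusted p 0.00223). The calls ended when 1 array was left out for Inhba, the activin A subunit, higher at 0.61 ± 0.16, adjusted p 0.0297, the average of 0.15 on arrays lacking the suffix and 1.06 in set b (adjusted p up to 0.0975 without NS-398 arrays 2, 1b or 2b or SC-560 arrays 1b or 2b) and Bmp4, a bone morphogenetic protein, higher at 0.32 ± 0.07, adjusted p 0.0159 (adjusted p up to 0.0541 without NS-398 array 2 or SC-560 array 1b). Of 23 immediate early genes 5 were higher and 1 lower, but with 1 array left out the higher ones numbered 10 without SC-560 array 2, 2 without NS-398 array 2b or SC-560 array 1b, 3 without NS-398 array 1b or SC-560 arrays 1 or 2b, and 4 or 5 without the others. Their median was 0.30 (0.05 without the suffix, 0.51 in set b), and for 8 the effect differed between the sets, such as Fos (-0.45 on arrays lacking the suffix against 0.99 in set b) and Nr4a1 (-0.43 on arrays lacking the suffix against 1.16 in set b). Ier2 (0.54 ± 0.10, adjusted p 0.00531) and Klf4 (0.44 ± 0.08, adjusted p 0.00458) kept their call whichever array was left out. Dependent on single arrays were the calls of Fosl2, an AP-1 subunit, higher at 0.41 ± 0.10, adjusted p 0.02 (adjusted p up to 0.0699 without NS-398 arrays 1 or 2b or SC-560 array 1b), Egr1, a zinc finger factor, lower at -0.27 ± 0.06, adjusted p 0.0168 (adjusted p up to 0.0643 without NS-398 arrays 2 or 2b or SC-560 array 1b), Dusp1, a phosphatase of MAP kinases, higher at 0.33 ± 0.09, adjusted p 0.036, the average of 0.10 on arrays lacking the suffix and 0.56 in set b (adjusted p up to 0.116 without NS-398 arrays 1, 1b or 2b or SC-560 arrays 1, 1b or 2b) and Klf6, a Kruppel-like factor, higher at 0.27 ± 0.07, adjusted p 0.0346 (adjusted p up to 0.103 without any 1 of the 8 arrays other than NS-398 array 2).

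Inflammatory genes were higher with NS-398 in part, feedback inhibitors among them. Of 18 genes of NF-kB and its inhibitors 5 were higher (3 without NS-398 array 1b or SC-560 array 1) and none lower, with a median of 0.14. Nfkbia, the inhibitor that retains NF-kB in the cytosol, had signals of 7151, 7553, 5921 and 5815 on the NS-398 arrays and of 4238, 5418, 2982 and 3657 on the SC-560 arrays. Every NS-398 signal was above every SC-560 signal, with a log2 difference of 0.72 ± 0.08 (SE, limma adjusted p 3.26e-04). Nfkbiz, a nuclear inhibitor and cofactor of NF-kB (0.59 ± 0.09, adjusted p 0.0016), and Sod2, the mitochondrial superoxide dismutase (0.42 ± 0.05, adjusted p 6.75e-04), were higher, while Nfkb1 and Rela, the subunits, differed by 0.12 ± 0.08 and -0.11 ± 0.10 and did not pass. Lost with 1 array left out were the calls of Tnfaip3, a deubiquitinase that limits NF-kB, higher at 0.66 ± 0.15, adjusted p 0.0193 (adjusted p up to 0.0597 without NS-398 array 1b or SC-560 array 1) and Icam1, an adhesion molecule for leukocytes, higher at 0.41 ± 0.10, adjusted p 0.0257 (adjusted p up to 0.086 without NS-398 arrays 2 or 1b or SC-560 arrays 1 or 1b). Of 14 chemokines and cytokines 3 were higher and 1 lower: Cxcl12 was higher (0.39 ± 0.08, adjusted p 0.00858) and Il18, an epithelial cytokine, lower without overlap (-0.58 ± 0.09, adjusted p 0.00239). Cxcl3, another chemokine, differed by -0.43 ± 0.27 and did not pass. Its sets gave 0.40 on arrays lacking the suffix against -1.26 in set b (interaction adjusted p 0.00496). A dimmer probe set of Cxcl3 was lower (-0.62 ± 0.17, adjusted p 0.0361), and its others were not called. Without certain single arrays the calls ended for Ccl2, a chemokine of monocytes, higher at 0.40 ± 0.09, adjusted p 0.0172 (adjusted p up to 0.0576 without NS-398 array 2b or SC-560 array 1b) and Cxcl2, a chemokine of neutrophils, higher at 0.57 ± 0.16, adjusted p 0.0458 (adjusted p up to 0.133 without NS-398 arrays 1, 2 or 1b or SC-560 arrays 1, 2 or 1b).

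Glucocorticoid-responsive and acute-phase genes were called often. Of 11 tested genes of the glucocorticoid response 5 were higher (3 without SC-560 array 1b) and none lower, with a median of 0.28. Beside Hsd11b1, Sgk1, a kinase that regulates ion transport, had signals of 7051, 6809, 3035 and 3418 on the NS-398 arrays and of 3840.3, 4011, 1343 and 1341 on the SC-560 arrays. NS-398 was higher within each set and more so in set b, with an average log2 difference of 1.02 ± 0.08 (SE, limma adjusted p 1.58e-05). By set the difference of Sgk1 was 0.81 on arrays lacking the suffix against 1.23 in set b (interaction adjusted p 0.0354). Errfi1, an inhibitor of the EGF receptor, was higher (0.87 ± 0.14, adjusted p 0.00293), but Fkbp5, Per1 and Tsc22d3, further responsive genes, differed by -0.08 ± 0.11, 0.02 ± 0.11 and 0.19 ± 0.08 and did not pass. A dimmer probe set of Fkbp5 was lower (-0.51 ± 0.11, adjusted p 0.0103). Klf9, a Kruppel-like factor, was higher (0.28 ± 0.06, adjusted p 0.0145) but lost its call without NS-398 array 2 or SC-560 array 1b (adjusted p up to 0.0511). Of 10 secreted acute-phase and complement genes 6 were higher (3 without SC-560 array 1b) and none lower, with a median of 0.29. Clu, the secreted chaperone clusterin, had signals of 13501, 12976, 8181 and 8093 on the NS-398 arrays and of 8302, 8156, 4602 and 5342 on the SC-560 arrays. NS-398 was higher in both sets, with a log2 difference of 0.70 ± 0.05 (SE, limma adjusted p 1.12e-05). Cp, ceruloplasmin, was higher without overlap (0.62 ± 0.08, adjusted p 5.78e-04), and Lbp is given above. The calls ended when 1 array was left out for Serpina3n, a protease inhibitor, higher at 1.01 ± 0.22, adjusted p 0.0138, the average of 0.32 on arrays lacking the suffix and 1.69 in set b (adjusted p 0.0508 without SC-560 array 1b), Saa3, a serum amyloid A protein, higher at 0.40 ± 0.12, adjusted p 0.0476 (adjusted p up to 0.141 without NS-398 arrays 2, 1b or 2b or SC-560 arrays 2, 1b or 2b) and C1r, a complement protease, higher at 0.17 ± 0.05, adjusted p 0.0397 (adjusted p up to 0.137 without any 1 of the 8 arrays other than NS-398 array 2). C3 and A2m, of complement and protease inhibition, differed by -0.36 ± 0.16 and -0.46 ± 0.16 and did not pass.

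Secretory and junction genes went different ways. Of 7 tested trefoil and secretory genes 3 were higher and none lower, and of the 17 listed most stayed under the signal minimum. Beside Klf4 and Tff2, given elsewhere, this was Agr2. Agr2, a disulfide isomerase of secretory cells, was higher (0.51 ± 0.14, adjusted p 0.0443), a call that ended without NS-398 arrays 2, 1b or 2b or SC-560 arrays 1, 1b or 2b (adjusted p up to 0.124). Tff3, the trefoil peptide of goblet cells, differed by -0.01 ± 0.16. Of 17 junction genes none was higher and 3 were lower, with a median of -0.14 and 4 of 17 above 0. Ppl, periplakin, a linker of desmosomes and filaments, had signals of 108, 108, 123 and 157 on the NS-398 arrays and of 247, 238, 232 and 338 on the SC-560 arrays. No NS-398 signal reached an SC-560 signal, with a log2 difference of -0.85 ± 0.13 (SE, limma adjusted p 0.0017). Dependent on single arrays were the calls of Cdh3, P-cadherin, lower at -0.31 ± 0.07, adjusted p 0.0166 (adjusted p 0.0565 without SC-560 array 2b) and Cdh11, a cadherin of mesenchymal cells, lower at -0.39 ± 0.11, adjusted p 0.0425, the average of -0.72 on arrays lacking the suffix and -0.06 in set b (adjusted p up to 0.127 without NS-398 arrays 1, 2 or 2b or SC-560 arrays 1, 2 or 2b). Cdh1 differed by -0.14 ± 0.08, and Tjp1 and Ctnnb1, of tight and adherens junctions, by -0.05 ± 0.04 and -0.05 ± 0.05.

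More regulators of actin were lower than higher with NS-398. Of 44 tested 3 were higher and 10 lower (6 lower without NS-398 array 1 or SC-560 array 2b), with a median of -0.10, and 11 of the 44 lay above 0. Of the 13 called, 6 kept their call whichever array was left out. Tpm1, a tropomyosin, had signals of 10656, 10244, 9723 and 8672 on the NS-398 arrays and of 15146, 13925, 11882 and 12022 on the SC-560 arrays. Every NS-398 array was lower, with a log2 difference of -0.43 ± 0.05 (SE, limma adjusted p 3.83e-04). Tagln, transgelin, which binds actin in smooth muscle, had signals of 1153, 1192, 266 and 274 on the NS-398 arrays and of 1425, 1628, 738 and 759 on the SC-560 arrays. Its fall was larger in set b, where DMSO array 1b stood at 1349 and array 2b at 639, and the average log2 difference was -0.84 ± 0.15 (SE, limma adjusted p 0.00518). The sets gave -0.36 on arrays lacking the suffix against -1.32 in set b (interaction adjusted p 0.0022). Zyx, zyxin of focal adhesions, was lower without overlap (-0.31 ± 0.07, adjusted p 0.0114), and Dock11 and Afap1l2 are given above. Myh10, a non-muscle myosin, was higher without overlap (0.34 ± 0.06, adjusted p 0.00344). Lost with 1 array left out were the calls of Myh9, a non-muscle myosin, lower at -0.36 ± 0.09, adjusted p 0.0227 (adjusted p up to 0.0738 without NS-398 arrays 1 or 2 or SC-560 arrays 1, 2 or 2b), Cald1, caldesmon, lower at -0.24 ± 0.06, adjusted p 0.0238 (adjusted p up to 0.0821 without NS-398 arrays 1 or 2b or SC-560 arrays 2 or 2b), Cdc42, a GTPase of cell polarity, lower at -0.22 ± 0.06, adjusted p 0.0309 (adjusted p up to 0.105 without NS-398 arrays 1, 2 or 2b or SC-560 arrays 1, 2 or 1b) and Ezr, ezrin, lower at -0.21 ± 0.05, adjusted p 0.0166 (adjusted p up to 0.0553 without NS-398 array 2b or SC-560 array 2b). Without certain single arrays the calls ended for Msn, moesin, lower at -0.19 ± 0.05, adjusted p 0.0309 (adjusted p up to 0.101 without NS-398 arrays 1, 1b or 2b or SC-560 arrays 1, 1b or 2b), Raph1, lamellipodin, higher at 0.29 ± 0.07, adjusted p 0.0226 (adjusted p up to 0.0694 without NS-398 arrays 1 or 2 or SC-560 arrays 2 or 2b) and Tagln2, transgelin-2, higher at 0.23 ± 0.06, adjusted p 0.0308 (adjusted p up to 0.0975 without NS-398 arrays 2, 1b or 2b or SC-560 arrays 1, 1b or 2b). The GTPases Rhoa and Rac1 differed by -0.06 ± 0.06 and -0.04 ± 0.05 and did not pass.

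Adhesion receptors and calpains held some calls, beside 5.93% of all named genes called higher and 4.47% called lower. Of 21 genes of integrins and focal adhesions 1 was higher and 2 lower, with a median of -0.02. Itgb3, a subunit of receptors for vitronectin and osteopontin, was higher (0.65 ± 0.12, adjusted p 0.00663). The calls ended when 1 array was left out for Pxn, paxillin, lower at -0.29 ± 0.08, adjusted p 0.0435 (adjusted p up to 0.128 without NS-398 arrays 1, 1b or 2b or SC-560 arrays 1, 1b or 2b) and Tns1, tensin-1, lower at -0.30 ± 0.08, adjusted p 0.0438 (adjusted p up to 0.131 without NS-398 arrays 1, 2 or 1b or SC-560 arrays 1, 2 or 2b). Of 9 genes of the calpain system none was higher and 2 were lower, with a median of -0.10. Capn2, the large subunit of m-calpain, had signals of 2739, 2697, 2929 and 2884 with NS-398 and 3524, 3476, 3309.9 and 3385 with SC-560. These did not overlap, with a log2 difference of -0.28 ± 0.06 (SE, limma adjusted p 0.00845). Capns1, the small subunit, and Cast, the inhibitor calpastatin, differed by -0.19 ± 0.06 and 0.20 ± 0.10 and did not pass, although the effect on Cast differed between the sets (-0.11 on arrays lacking the suffix against 0.51 in set b).

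Matrix genes were called in both directions. Of 46 tested 7 were higher and 12 lower, with a median of -0.11, and 13 of the 19 kept their call whichever array was left out. Among those lower were collagens and basement membrane genes. Col1a2, a chain of collagen I, had signals of 6781, 7279, 18919 and 20816 on the NS-398 arrays and of 9479, 9885, 26221 and 25258 on the SC-560 arrays. NS-398 was lower within each set, with a log2 difference of -0.42 ± 0.05 (SE, limma adjusted p 2.97e-04). Nid1, nidogen of basement membranes, had signals of 3379, 3631, 2677 and 2253 on the NS-398 arrays and of 4835, 4750.1, 4276 and 4376 on the SC-560 arrays. NS-398 was lower on every array, with a log2 difference of -0.63 ± 0.08 (SE, limma adjusted p 5.75e-04). A dimmer probe set of Nid1 gave -0.13 ± 0.12 and was not called (adjusted p 0.519). Eln, elastin (-0.29 ± 0.05, adjusted p 0.00391), Col5a1, of collagen V (-0.38 ± 0.07, adjusted p 0.00777), Col3a1, of collagen III (-0.25 ± 0.05, adjusted p 0.0124), and Fbln2, fibulin-2 (-0.48 ± 0.10, adjusted p 0.00944, which was -0.22 on arrays lacking the suffix against -0.73 in set b), were lower as well. Dependent on single arrays were the calls of Col5a3, of collagen V, lower at -0.75 ± 0.18, adjusted p 0.0209 (adjusted p up to 0.0772 without NS-398 arrays 2 or 1b or SC-560 arrays 1 or 2b), Col1a1, of collagen I, lower at -0.20 ± 0.04, adjusted p 0.0166 (adjusted p up to 0.0671 without NS-398 arrays 1 or 1b or SC-560 array 1b), Sparc, a collagen-binding glycoprotein, lower at -0.25 ± 0.06, adjusted p 0.0172 (adjusted p up to 0.0618 without NS-398 arrays 1 or 2 or SC-560 array 1) and Lamb2, a laminin chain, lower at -0.31 ± 0.07, adjusted p 0.0173 (adjusted p up to 0.061 without NS-398 arrays 1 or 2).

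Those higher were mostly proteoglycans and glycoproteins. Vcan, versican, had signals of 175, 171, 2410.3 and 2313 on the NS-398 arrays and of 84.5, 80.7, 1477 and 1256 on the SC-560 arrays. NS-398 was higher in both sets, and the gene was much brighter in set b, with a log2 difference of 0.76 ± 0.08 (SE, limma adjusted p 2.10e-04). Spp1, osteopontin, had signals of 8626, 9549, 16730.0 and 16290.0 on the NS-398 arrays and of 3852, 4654, 12614 and 11445 on the SC-560 arrays. The rise was larger without the suffix, with an average log2 difference of 0.77 ± 0.11 (SE, limma adjusted p 0.00102). This was 1.09 on arrays lacking the suffix against 0.46 in set b (interaction adjusted p 0.0096). Dcn, decorin (0.64 ± 0.08, adjusted p 3.20e-04), Fbln5, fibulin-5 (0.55 ± 0.10, adjusted p 0.00556), and Col15a1, of collagen XV (0.56 ± 0.11, adjusted p 0.00882), were higher. Lost with 1 array left out were the calls of Efemp1, fibulin-3, higher at 0.29 ± 0.07, adjusted p 0.0216, the average of 0.11 on arrays lacking the suffix and 0.46 in set b (adjusted p up to 0.072 without any 1 of the 4 arrays of set b) and Tnc, tenascin C, higher at 0.21 ± 0.06, adjusted p 0.0357 (adjusted p up to 0.109 without any 1 of the 8 arrays other than SC-560 array 1b). For 11 of the 46 the effect differed between the label sets, among them Postn, periostin (-1.56 on arrays lacking the suffix against 0.02 in set b), and Col6a2, of collagen VI (-0.79 on arrays lacking the suffix against 0.42 in set b). Of 17 matrix proteases and inhibitors 2 were higher, Adamts1 and Serpine2, an inhibitor of thrombin and plasminogen activators (1.02 ± 0.19, adjusted p 0.00718), and 2 were lower, the membrane protease Mmp14 (-0.31 ± 0.07, adjusted p 0.0125) and the inhibitor Timp1 (-0.28 ± 0.06, adjusted p 0.0115).

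Polyamine and iron genes were the remaining groups with several rises. Polyamines are known in these cells for their part in growth and migration after wounding. Of 13 tested 5 were higher and none lower, with a median of 0.13: beside Sat1 these included Amd1, which supplies the aminopropyl donor (0.49 ± 0.08, adjusted p 0.00384), and Oat, which links ornithine to proline (0.36 ± 0.06, adjusted p 0.00418). Without certain single arrays the calls ended for Paox, polyamine oxidase, higher at 0.47 ± 0.11, adjusted p 0.017 (adjusted p up to 0.0537 without NS-398 array 1b or SC-560 array 2b) and Arg1, arginase, higher at 0.27 ± 0.06, adjusted p 0.0217 (adjusted p up to 0.0811 without NS-398 arrays 1 or 2 or SC-560 array 1). Odc1, which limits polyamine synthesis, differed by 0.19 ± 0.11 and did not pass, with 0.54 on arrays lacking the suffix against -0.16 in set b. Of 14 iron genes 5 were higher and none lower, with a median of 0.07. Slc40a1, the iron exporter ferroportin, had signals of 344, 396, 479 and 462 with NS-398 and 119, 152, 320.1 and 249 with SC-560. These did not overlap, with a log2 difference of 0.91 ± 0.13 (SE, limma adjusted p 0.00125). Tfrc, the transferrin receptor, differed by 0.34 ± 0.10, adjusted p 0.0444, and its adjusted p rose to as much as 0.135 without NS-398 arrays 1, 2 or 2b or SC-560 arrays 1, 2 or 1b. Hmox1 and Cp, given above, belong to this list too, and genes can stand in more than 1 list.

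**Figure D3:**
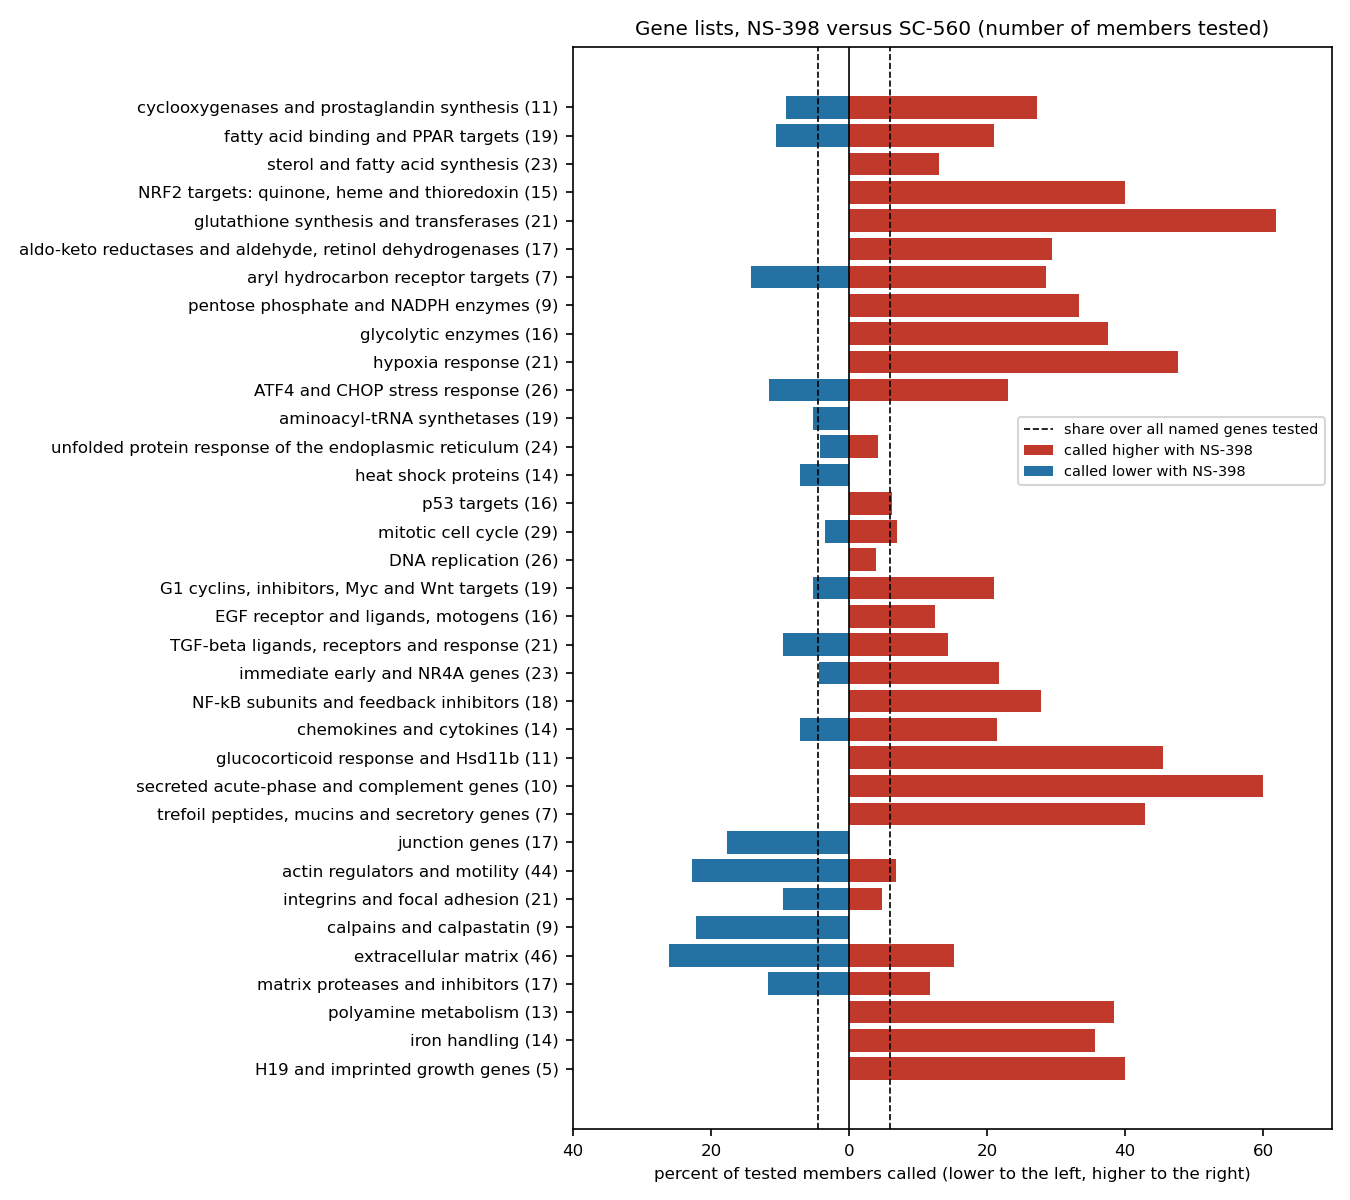
Percent of the tested members of each gene list, cell type markers left out, that were called higher (red, to the right) or lower (blue, to the left) with NS-398 than with SC-560; the number of members tested follows each name, and dashed lines mark the shares over all named genes (5.93% higher, 4.47% lower). Glutathione genes (13 of 21) and acute-phase genes (6 of 10) reach farthest to the right, and matrix genes (12 of 46) and actin genes (10 of 44) farthest to the left.

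Over all lists, 121 of 650 tested genes were called higher and 50 lower with NS-398, beside 5.93% and 4.47% of all named genes. Of these 171, 103 kept their call whichever array was left out, and in 58 the groups did not overlap, beside 639 of all 9693 named genes (6.59%). The 58 were counted among called genes only, which favours groups that do not overlap.

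The lists were also counted within each label set alone, 2 against 2 arrays. There limma called 456 of 9693 named genes higher (4.70%) and 431 lower (4.45%) without the suffix, and 717 higher (7.40%) and 486 lower (5.01%) in set b. NRF2 targets had 8 of 15 higher without the suffix, 7 of 15 in set b and none lower in either. Blvrb, biliverdin reductase B, and Abcc1, an exporter of glutathione conjugates, were called without the suffix (0.54 and 0.70) and not in set b (0.10 and 0.10), and Gpx2, the gut glutathione peroxidase, was called in set b (0.94) and not without the suffix (-0.09). Glutathione genes had 9 of 21 higher and none lower without the suffix, and 12 higher and 1 lower in set b. The lower gene was Gpx3, a secreted glutathione peroxidase (-0.93, adjusted p 0.0157). Actin regulators had 3 higher and 8 lower of 44 without the suffix, against 3 higher and 9 lower in set b. The matrix list had 7 higher and 12 lower of 46 without the suffix, and 9 higher and 8 lower in set b.

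Glycolysis, the hypoxia response and the immediate early genes had most of their calls in set b. Glycolytic genes had 3 of 16 higher and 1 lower without the suffix and 12 higher and none lower in set b. Aldoa, aldolase A, had opposite calls, at -0.23 (adjusted p 0.038) and 0.53 (adjusted p 8.65e-05). Ldha, lactate dehydrogenase A, had -0.04 (adjusted p 0.71) and 0.51 (adjusted p 1.10e-04). Hypoxia genes had 5 of 21 higher and 3 lower without the suffix, and 14 higher and none lower in set b. The 3 lower without the suffix were Egln3, a prolyl hydroxylase (-0.47, adjusted p 0.0105), Bnip3l, a receptor of mitophagy (-0.41, adjusted p 0.0149), and P4ha2, a collagen prolyl hydroxylase (-0.53, adjusted p 0.00784). Vegfa, Ddit4, Ero1a, Adm and Ankrd37 were higher in each set alone. Immediate early genes had 1 of 23 higher and 4 lower without the suffix, and 13 higher and 1 lower in set b. Fos and Nr4a1, which encode transcription factors induced within minutes of a stimulus, were called in opposite directions, Fos at -0.45 (adjusted p 0.0166) and 0.99 (adjusted p 4.98e-04) and Nr4a1 at -0.43 (adjusted p 0.0224) and 1.16 (adjusted p 4.16e-05).

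Markers of other cell types were read beside these groups. Of 14 fibroblast and smooth muscle markers 10 were tested and 4 called lower with NS-398, which were Tagln, Col1a2, Col3a1 and Col1a1. Tagln stands in the list of actin regulators too and the 3 collagens in the matrix list, so that they are no separate measure beside those lists. Of the 6 tested markers in neither list, Vim, vimentin, differed by -0.01 ± 0.04, S100a4, a calcium-binding protein, by -0.14 ± 0.06 and Acta2, smooth muscle actin, by -0.37 ± 0.12, while Des, desmin, Myh11, smooth muscle myosin, and Pdgfra, a receptor of platelet-derived growth factor, lay above 0 (0.38 ± 0.14, 0.37 ± 0.21 and 0.70 ± 0.25), and none of the 6 passed. Pdgfra had signals of 143, 161, 16.4 and 2.24 on the NS-398 arrays and of 38.2, 26.1, 4.54 and 5.16 on the SC-560 arrays, and it was called higher on arrays lacking the suffix alone (1.30, adjusted p 0.0056). The summed signal of the 14 was 71258 to 114205 with NS-398, 84060.2 to 124922 with SC-560 and 80499 to 111245 with DMSO. The part of these markers in the results on matrix and actin genes was not tested. Of 11 adipocyte markers on the array 3 were tested and Fabp4 alone was called. Adipoq, Plin1, Lep, Cidec and Lpl, which define fat cells, stayed under 100 on all 8 arrays, and the summed signal of the 11 was 1613 to 2771 with NS-398 and 913 to 1196 with SC-560. These sums include Fabp4, with 898 to 2052 with NS-398 and 144 to 667 with SC-560. Lipe and Cebpa, the other tested adipocyte markers, differed by -0.51 ± 0.21 and 0.05 ± 0.12 and did not pass. Of 12 macrophage and leukocyte markers 1 was tested, Cd14 (summed signal 4054 to 4317 with NS-398 and 3338 to 3994 with SC-560), and Ptprc, Itgam and Adgre1 stayed under 100. Most of these sums was Cd14 itself, with 3608 to 4053 with NS-398 and 2871 to 3718 with SC-560. Cd14 was higher (0.24 ± 0.06, adjusted p 0.0274) but lost its call without NS-398 arrays 2, 1b or 2b or SC-560 arrays 2, 1b or 2b (adjusted p up to 0.0866). Of 9 endothelial markers 3 were tested and none called (summed signal 503 to 909 and 543 to 1082), with 0 endothelial calls also in each label set alone. Of 9 neuronal and glial markers 3 were tested and 1 was called, Uchl1, a deubiquitinase also made outside neurons (-0.60 ± 0.07, adjusted p 4.66e-04), with a summed signal of 1894 to 2297 with NS-398 and 2523 to 3424 with SC-560. The larger part of these sums was Uchl1 itself, with 1260 to 1702 with NS-398 and 2067 to 2280 with SC-560. Of the epithelial markers Krt8 was lower with NS-398 (-0.40 ± 0.05, adjusted p 8.42e-04), with a summed signal of 36259.7 to 41203 with NS-398 and 36620.3 to 43966 with SC-560. Krt7, a keratin, was lower (-0.62 ± 0.17, adjusted p 0.0354), a call that ended without any 1 of the 8 arrays other than NS-398 array 2b (adjusted p up to 0.0943). Of the 8 arrays only those of SC-560 reached the signal minimum for Krt7, which was tested only because it was high there. The other tested epithelial markers did not pass. Krt20, Cdx2 and Lgals4 lay above 0 (0.25 ± 0.15, 0.09 ± 0.16 and 0.07 ± 0.19), and Krt19, Vil1, Cdh1 and Tspan8 below it. The sets gave opposite signs for Krt19 (-0.86 on arrays lacking the suffix, 0.64 in set b, interaction adjusted p 0.00165). Lgals4 likewise had 0.65 and -0.50 (interaction adjusted p 0.00373).

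The difference between the drugs depended on the label set for part of the genes. The interaction of drug and set was called for 713 of 17117 probe sets (4.17%) and for 480 of 9693 named genes (4.95%). The 713 became 225 and 239 without NS-398 array 2 or SC-560 array 2b, 264 and 295 without NS-398 array 1 or SC-560 array 1b, and 347 and 415 without NS-398 arrays 1b or 2b, and 127 with no intensity trend in the fit. In 371 of the 480 the difference had opposite signs in the sets, 156 being higher with NS-398 without the suffix and lower in set b, and 215 the reverse. When each set was fitted by itself 418 probe sets were called in both, 358 of them in 1 direction and 60 in opposite ones. Il33, an alarm cytokine, had signals of 1094, 1397, 1467 and 1427 on the NS-398 arrays and of 558, 571, 3666 and 3188 on the SC-560 arrays. NS-398 was above SC-560 without the suffix and below it in set b (1.07 on arrays lacking the suffix against -1.21 in set b, interaction adjusted p 4.05e-06). Cadm1, an adhesion molecule, did likewise (1.13 on arrays lacking the suffix against -0.74 in set b, interaction adjusted p 2.51e-05). Cxcl13, a chemokine of B cells, had signals of 29.5, 10.7, 1864 and 1478 on the NS-398 arrays and of 32.5, 43.9, 274 and 244 on the SC-560 arrays. NS-398 was higher in set b, where the gene was bright, and without the suffix all signals of both drugs were under 50 (-0.34 on arrays lacking the suffix against 2.47 in set b, interaction adjusted p 8.00e-05). Lum, a proteoglycan, and Tff1, a trefoil peptide, were higher with NS-398 without the suffix, Lum with 1.88 on arrays lacking the suffix against -0.02 in set b and Tff1 with 1.64 on arrays lacking the suffix against -0.10 in set b. Drp2, related to dystrophin, was lower without the suffix (-1.91 on arrays lacking the suffix against 0.16 in set b), and Nipal1, a magnesium transporter family member, went from lower to higher (-1.03 on arrays lacking the suffix against 0.98 in set b). The interaction was called in 24 of the 129 named and called genes, and for those the average over the sets describes neither set. Among them were genes with 1 direction in both sets, such as Lbp (0.59 on arrays lacking the suffix against 1.92 in set b), Fam180a (-1.65 on arrays lacking the suffix against -0.89 in set b), Scin (-1.71 on arrays lacking the suffix against -0.45 in set b), Them5 (-1.62 on arrays lacking the suffix against -0.53 in set b), Errfi1 (0.42 on arrays lacking the suffix against 1.31 in set b) and Serpine2 (0.45 on arrays lacking the suffix against 1.58 in set b). Since no source here explains the suffix, what differs between the sets cannot be told apart from any other difference between those arrays.

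**Figure D4:**
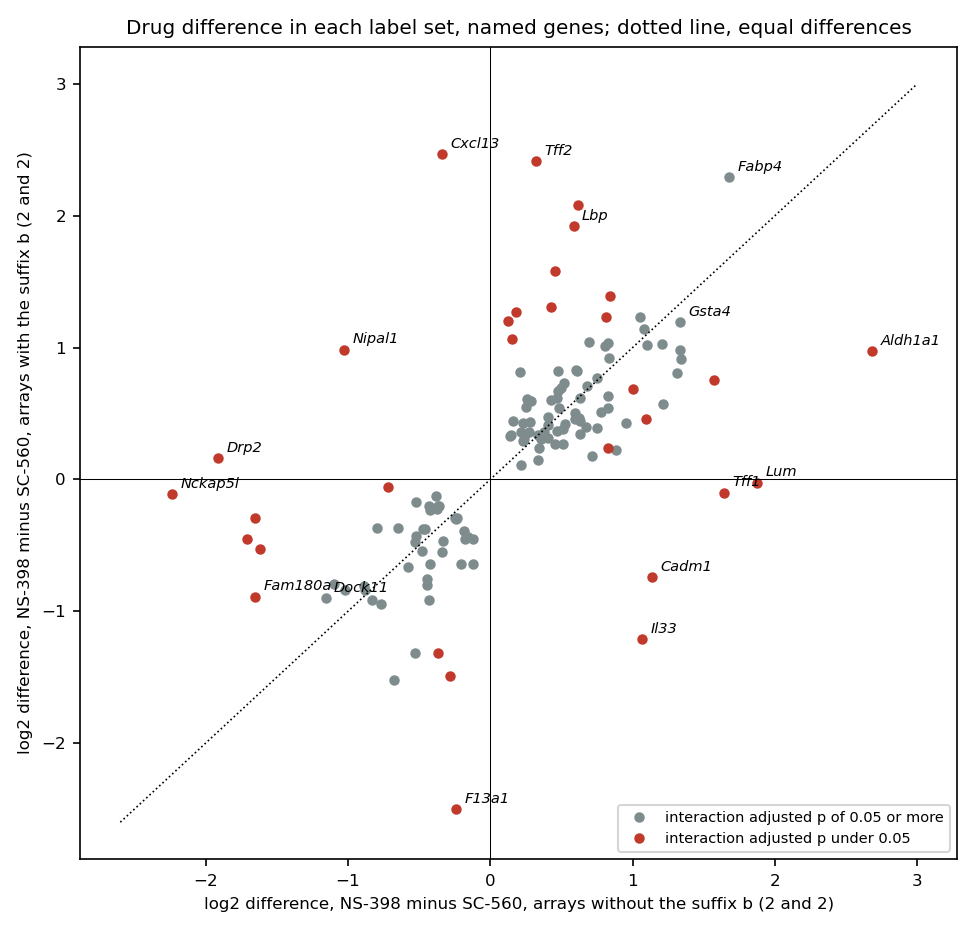
Log2 difference of NS-398 minus SC-560 in the arrays without the suffix b (horizontal axis) and in those with it (vertical axis), 2 against 2 arrays each, for the 137 named genes; red points have an interaction adjusted p under 0.05 and the dotted line marks equal differences. Fabp4 and Gsta4 lie near the line, and Il33, Cadm1, Cxcl13 and Nipal1 lie in the quadrants of opposite sign.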

How the data were processed

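IEC-6 cells had been treated for 72 h with 100 µM NS-398, 1 µM SC-560 or DMSO (4 arrays each) or 100 µM indomethacin (2 arrays). Per the labels, RNA went through 2 rounds of in vitro transcription and the signals of all probe sets were scaled by the authors to a target signal of 500. The deposited values are linear intensities. The probe-summary software is not given in the sources used here. Of 31099 probe sets, 20832 had 1 gene symbol in the platform annotation, 436 had several, 9831 were not listed and 20764 names were updated through gene IDs. Here log2(signal + 50) was fitted in limma 3.58.1 (R 4.3.3, intensity trend) with drug and label set on the 8 arrays, after dropping the 57 control probe sets and those that did not reach 100 on 2 arrays. A probe set dim with 1 drug can pass this filter through the other drug alone, as those of Capn8, Krt7 and Pdk4 did. P-values were adjusted by Benjamini-Hochberg over 17117 probe sets and called under 0.05. DMSO differences come from a fit that adds those arrays. The script was tested on simulated data. A gene is its probe set of highest mean log2 signal. Genes named are Ptgs1, Ptgs2, the 15 largest rises and 15 largest falls (mean signal at least 200 in the higher group, 1 sign in both sets), up to 3 called members per list and direction by adjusted p, and 5 interaction genes each way; others were named for their role after their values were seen. The comparison and the gene lists were chosen with earlier results of these data known. Alternatives changed the added 50, the filter, the scaling, the trend, the arrays and the block.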

Additional observations from a re-analysis of the deposited data

Results flagged for a closer look

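In groups of 4 arrays, 1 signal stood apart from the other 3 in 10 cases among the named genes, and chance gives such a gap in about 1 in 20 groups. Over the NS-398, SC-560 and DMSO groups of 137 named genes, 10 such cases can therefore arise by chance. Each group also holds arrays of both label sets. With SC-560 these were Nqo1 at 8277, Akr1b1 at 8735, Ppl at 338, Tns1 at 1723 and Uchl1 at 2067. With NS-398 it was Ccnd1 at 7602. With DMSO these were Tff2 at 22.2, Akr1b1 at 11477, Tgfb3 at 1785 and Amd1 at 651.

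The difference between NS-398 and SC-560 itself differed between the label sets for 713 probe sets in the limma interaction test. The change of the log2 difference from the arrays without the suffix to set b was 2.09 for Tff2, 2.12 for Nckap5l, 2.81 for Cxcl13, 2.08 for Drp2 and 2.01 for Nipal1, and it was -2.26 for F13a1, -2.28 for Il33, -1.90 for Lum, -1.88 for Cadm1 and -1.74 for Tff1. What the suffix stands for was not given, and its part in these differences was not tested.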

How the results depend on the processing

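The main fit called 1619 probe sets. Each alternative fit was counted by itself, whether or not the same probe sets were called. With no filter on signal 949 were called, and with no intensity trend 984. With no label set term, which leaves the spread between the sets in the error, 1 was called. The product of drug and label set in the model, an alternative chosen after seeing the data, gave 2767. Leaving out 1 array gave 895 to 1324. Added values of 16 or 200, quantile normalization, a stricter filter, all 14 arrays, each set alone and a random block gave between 1325 and 2242. The 713 interaction calls became 225 with no filter and 127 with no intensity trend, and 225 to 611 with 1 array left out. The 171 list members called became 108 with no intensity trend and 1 with no label set term, and 125 to 159 with 1 array left out. The causes of these shifts in counts were not otherwise tested.

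With the replicate block, which puts the full label (1, 2, 1b or 2b) in place of the label set, 825 probe sets were called and 118 list members. Arrays of different drugs with the same label correlated at 0.70 to 0.74 after group means were removed, arrays of the same set but the other digit at 0.71 to 0.75, and once set means were removed too the same-label correlations were 0.01 and -0.01. The digits thus pair nothing beyond the set.

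Among the named genes, those that changed direction were chosen for their interaction. Il33 turned to 1.07 without suffix b arrays and lay between -0.37 and 0.19 with 1 array left out. In set b alone Lum was -0.024, Cadm1 -0.74, Tff1 -0.10, Drp2 0.16 and Nipal1 0.98. Cadm1 lay between -0.027 and 0.41 with 1 array left out. Cxcl13 was -0.34 without suffix b arrays. Nipal1 was 0.046 after quantile normalization and lay between -0.26 and 0.35 with 1 array left out. The cause was not tested. With 4 arrays a group that share pooled cultures, dim genes and small differences are the least certain.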
